A study of Homo sapiens with 4 samples.

Results

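The 10 genes described here are 7 matrix metalloproteinase genes (MMP1, MMP2, MMP3, MMP9, MMP10, MMP14 and MMP15) and the genes of 3 tissue inhibitors of metalloproteinases (TIMP1, TIMP2 and TIMP3), taken by symbol from the 23228 genes counted in every library. All libraries came from A673, an established Ewing sarcoma cell line driven by the EWS-FLI1 fusion, harvested 48 h after siRNA transfection. siSMPD1 cells received siRNA against SMPD1, which encodes acid sphingomyelinase, and control_SMPD1 is the scrambled-siRNA library that the titles pair with it. siGPR64 cells received siRNA against GPR64, an adhesion G protein-coupled receptor gene, and control_GPR64 is the scrambled-siRNA library paired with it by title. Whether the pairs were cultured or sequenced together was not stated, and all cells grew in medium with serum, insulin and beta-mercaptoethanol. Each of the 4 groups holds 1 library, so no difference below has a replicate check, and each ratio compares 2 libraries of bulk RNA. In bulk RNA, fewer cells expressing a gene and less of its RNA per cell cannot be told apart.

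Matrix metalloproteinases are zinc-dependent endopeptidases that are made as inactive proenzymes and cleave collagens, laminins and other proteins outside the cell. TIMPs bind the active site of these enzymes and block it, and TIMP2 together with MMP14 also takes part in activating the proenzyme of MMP2. In Ewing sarcoma cells GPR64 has earlier been linked to invasion through PGF and MMP1.

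Gene counts summed to 18849264 in siSMPD1, 19614913 in control_SMPD1, 2534861 in siGPR64 and 2882854 in control_GPR64, so the SMPD1 pair was sequenced more deeply. Levels are CPM, the read counts of a gene brought to a common library total, after trimmed-mean (TMM) scaling, and a gene with no reads could stand at up to 0.159, 0.156, 1.18 and 1.03 CPM (3 counts) in the same 4 libraries. Of 10 Ewing sarcoma markers, 9 reached 1 CPM in every library, and CD99 was listed at 0 throughout. As reads that align to several places are not counted, this 0 does not show that CD99 RNA was absent. Skeletal muscle markers summed to between 1.71 and 2.50 CPM although the labels name muscle as the tissue, with MYOD1 and MYOG at 0 in all libraries. Of 7 epithelial markers 2 reached 1 CPM, KRT8 and KRT18, with KRT5 and KRT14 at 0 in all libraries. Their sum was 148 CPM in siSMPD1, 180.5 CPM in control_SMPD1, 169 CPM in siGPR64 and 85.3 CPM in control_GPR64, the library in which MMP1, MMP9 and MMP10 were lowest, and their part in the levels of these genes was not tested. Endothelial and immune markers summed to at most 3.92 and 13.6 CPM. SMPD1 stood 4.52-fold lower in siSMPD1 than in control_SMPD1 (95% counting interval 4.29 to 4.76), and GPR64 2.16-fold lower in siGPR64 than in control_GPR64 (1.76 to 2.68). The level of SMPD1 in control_GPR64, at 52.8 CPM, was below that in siSMPD1, at 91.7 CPM, and SMPD1 was 4.38-fold higher in siGPR64 than in control_GPR64. GPR64 was 3.57-fold lower in control_GPR64 than in control_SMPD1. Intervals here are exact Clopper-Pearson intervals and cover counting error only.

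The members fell into patterns that can be read from their levels alone. MMP1, MMP9 and MMP10 were far lower in control_GPR64 than in the other 3 libraries. MMP2, MMP14, MMP15 and TIMP2 were highest in siSMPD1. TIMP3 was highest in control_GPR64. TIMP1 differed by at most 1.23-fold between any 2 of the 4 libraries, against 27.5-fold for MMP9 and 22.4-fold for MMP1. The MMP9 value rests on 2 reads in control_GPR64, and the ratio of siSMPD1 to that library had a counting interval of 7.57 to 228.

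**Figure D1:**
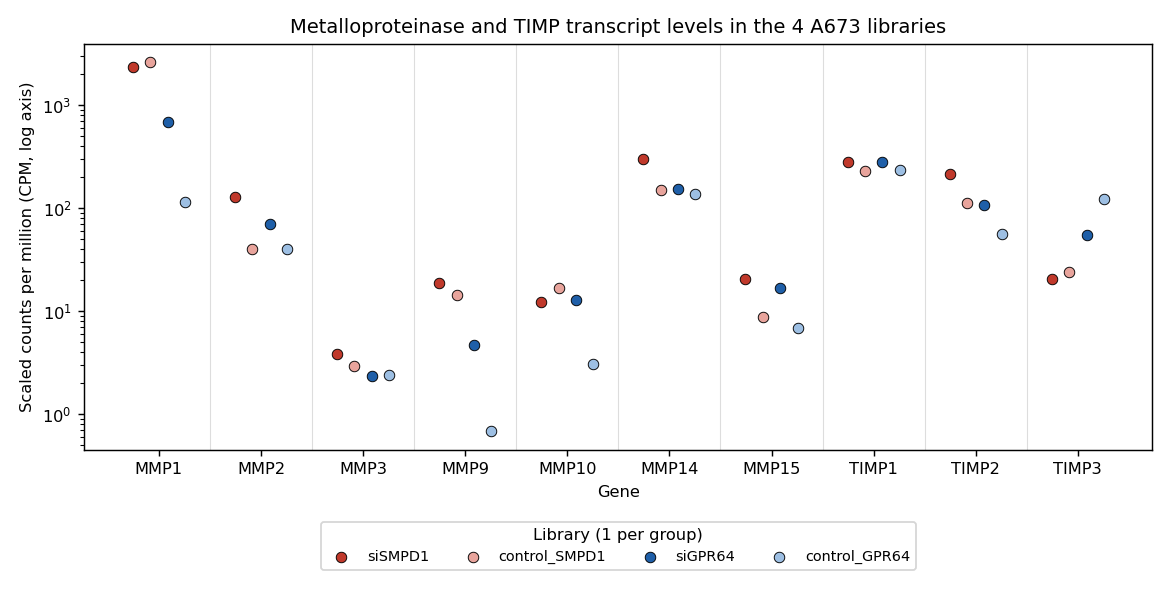
Scaled CPM (log axis) of the 10 genes, with 1 point per library in the order siSMPD1, control_SMPD1, siGPR64 and control_GPR64. MMP1 is lowest in control_GPR64 at 116 CPM and highest in control_SMPD1 at 2609 CPM, TIMP3 is highest in control_GPR64 at 123 CPM and lowest in siSMPD1 at 20.7 CPM, and TIMP1 stays between 232 and 284 CPM.

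A gene counts below as past the rule of size when the libraries compared average at least 1 CPM for it, differ by 2-fold or more, and have a counting interval that leaves out equal levels. All 10 members had a mean of at least 1 CPM in every comparison. Between siSMPD1 and control_SMPD1, 2 members were higher by this rule and none lower, where 3.6% of 12749 measured genes were past it in either direction and 2.49% were higher. Between siGPR64 and control_GPR64, 4 members were higher and 1 lower, where 11.7% of 12830 measured genes were past it, 6.56% higher and 5.18% lower. Between the control libraries, 1 member was higher and 4 were lower in control_GPR64 than in control_SMPD1, where 15.4% of 12798 measured genes were past the rule, 7.02% higher and 8.33% lower. Median log2 ratios of the 10 members were 0.38 in siSMPD1, 0.86 in siGPR64 and -0.33 between the controls, where those of all measured genes were -0.00, 0.01 and -0.01.

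Among the secreted collagenase and stromelysins, MMP1, which cleaves fibrillar collagens, was the most abundant. It stood at 2375 CPM in siSMPD1, 2609 CPM in control_SMPD1, 689 CPM in siGPR64 and 116 CPM in control_GPR64. Both libraries of the GPR64 pair thus lay below both libraries of the SMPD1 pair. MMP1 was 1.1-fold lower in siSMPD1 than in control_SMPD1 (1.08 to 1.11), and 66.0% of measured genes had a larger ratio there. It was 5.91-fold higher in siGPR64 than in control_GPR64 (5.26 to 6.66), and 1.64% of measured genes had a larger ratio. Set against control_SMPD1, the siGPR64 library was 3.79-fold lower (3.61 to 3.97), so the direction of MMP1 after GPR64 silencing turns on the control used. The controls themselves differed 22.4-fold, with control_GPR64 lower (20.1 to 24.995), a ratio exceeded by 0.484% of measured genes.

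MMP10, or stromelysin-2, which degrades proteoglycans and glycoproteins and can activate other metalloproteinases, followed MMP1 in sign in all 3 comparisons. Its counts were 231 in siSMPD1, 326 in control_SMPD1, 33 in siGPR64 and 9 in control_GPR64, which are 12.2, 16.97, 12.9 and 3.08 CPM. The level in siGPR64 lay between those of the SMPD1 pair, and control_GPR64 stood alone below them. MMP10 was 1.39-fold lower in siSMPD1 than in control_SMPD1 (1.17 to 1.65) and 4.01-fold higher in siGPR64 than in control_GPR64 (1.963 to 9.96). Against control_SMPD1 the siGPR64 ratio was 1.31-fold lower with an interval that held equality (0.916 to 1.94). MMP3, stromelysin-1, a close paralogue of MMP10, had few reads: 73 in siSMPD1, 57 in control_SMPD1, 6 in siGPR64 and 7 in control_GPR64. Its levels of 3.87, 2.97, 2.35 and 2.4 CPM did not differ beyond counting error in any of the 3 comparisons. For siGPR64 over control_GPR64 the log2 ratio of MMP3 was -0.03 with an interval from -1.88 to 1.77, so a difference within that range was not detectable at this depth. Reads that align to several places are left out of the counts, and any loss for the pair MMP3 and MMP10 was not measured.

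MMP10, MMP1 and MMP3 stand next to each other in RefSeq on chromosome 11, within a run of 9 metalloproteinase genes. Of the 6 others in that run, MMP20 and MMP27 had 0 reads in all libraries and MMP7 had 2 reads in control_SMPD1 alone. MMP8, a neutrophil collagenase, was at 0.954 CPM in siSMPD1, 2.39 CPM in control_SMPD1, 0.392 CPM in siGPR64 and 0.343 CPM in control_GPR64, the last pair on 1 read each. MMP12, the macrophage elastase, had 20 and 36 reads in siSMPD1 and control_SMPD1 and 0 in both libraries of the GPR64 pair. MMP13, another collagenase, had 17 and 36 reads in siSMPD1 and control_SMPD1, against 1 and 0 in siGPR64 and control_GPR64. MMP8 was 2.47-fold lower in siSMPD1 than in control_SMPD1 (1.43 to 4.6) and MMP13 2.05-fold lower (1.14 to 3.95). Both were past the rule. A lower level in siSMPD1 than in control_GPR64 could not have been seen. Control_GPR64 had 1 and 0 reads of these genes, and its floor lay above their siSMPD1 levels of 0.954 and 0.901 CPM. The 3-count floors of the GPR64 pair, at 1.18 and 1.03 CPM, lie close to these levels, so a difference in MMP8, MMP12 or MMP13 was not detectable there.

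**Figure D2:**
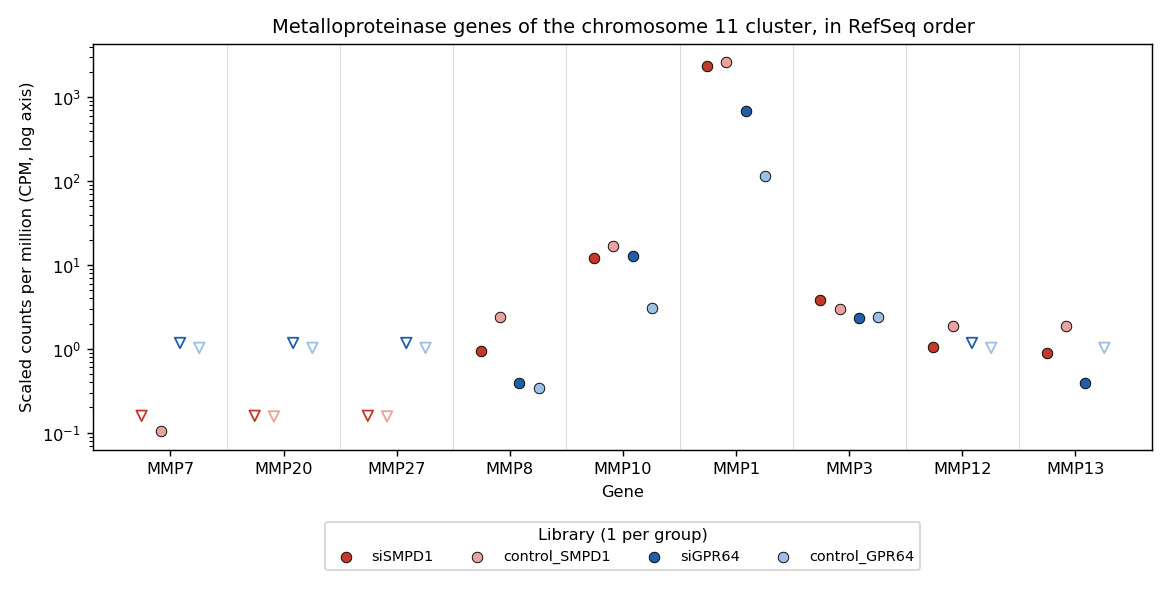
Scaled CPM (log axis) of the 9 chromosome 11 metalloproteinase genes in RefSeq order, with 1 point per library, and open triangles at the 3-count floor where a library had 0 reads. MMP1 lies above all its neighbours in every library, and MMP1 and MMP10 share a low point in control_GPR64 at 116 and 3.08 CPM.

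RefSeq promoter sequences (GRCh38.p14, 250 bases before to 50 after the start) were matched for 5 of the 10 members, namely MMP10, MMP14, MMP15, TIMP1 and TIMP3. MMP1, MMP2, MMP3, MMP9 and TIMP2 were not matched. The sequences of MMP10, MMP14 and TIMP3 are shown because these genes stand for the 3 patterns, low in control_GPR64, high in siSMPD1 and high in control_GPR64. Capitals mark matches on either strand to TGANTCA (a looser form of the AP-1 site, with any middle base) and TATAAA (the TATA box). They also mark GGAAGGAA (a tandem of the GGAA core that ETS factors and EWS-FLI1 bind) and GGGCGG (the GC box). The marked matches did not overlap. The windows are chr11:102780579-102780878 on the minus strand for MMP10, chr14:22836335-22836634 on the plus strand for MMP14 and chr22:32801455-32801754 on the plus strand for TIMP3.
MMP10: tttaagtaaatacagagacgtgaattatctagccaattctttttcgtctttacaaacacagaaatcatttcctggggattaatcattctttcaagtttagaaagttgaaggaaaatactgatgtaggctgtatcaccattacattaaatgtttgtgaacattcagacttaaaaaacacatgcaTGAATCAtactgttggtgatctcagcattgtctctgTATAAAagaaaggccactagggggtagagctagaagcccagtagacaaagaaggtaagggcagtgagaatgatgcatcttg
MMP14: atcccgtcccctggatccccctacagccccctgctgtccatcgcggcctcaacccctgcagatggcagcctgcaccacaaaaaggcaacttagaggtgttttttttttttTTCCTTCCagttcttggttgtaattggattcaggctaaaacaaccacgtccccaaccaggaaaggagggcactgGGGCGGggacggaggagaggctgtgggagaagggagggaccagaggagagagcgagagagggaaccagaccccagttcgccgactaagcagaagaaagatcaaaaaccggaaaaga
TIMP3: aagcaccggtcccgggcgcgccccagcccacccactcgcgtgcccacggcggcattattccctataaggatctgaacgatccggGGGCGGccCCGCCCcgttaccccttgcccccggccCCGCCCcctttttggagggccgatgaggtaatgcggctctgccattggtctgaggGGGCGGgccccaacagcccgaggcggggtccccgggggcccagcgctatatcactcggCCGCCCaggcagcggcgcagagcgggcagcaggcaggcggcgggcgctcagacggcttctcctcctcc
MMP10 held 1 match to the looser AP-1 pattern, with A as the middle base (TGAATCA) and its first base at -67 from the start. It also held a TATA box at -31, and neither the MMP14 nor the TIMP3 window held these. Of 35116 promoters of the same length, 7.71% held a match to TGANTCA and 11.5% a TATA box. MMP14 held a tandem GGAA match at -140, as did TIMP1 at -248, where 3.67% of promoters held one. GC boxes, present in 45.0% of promoters, numbered 1 in MMP14, 5 in MMP15, 2 in TIMP1, 5 in TIMP3 and 0 in MMP10. The short ETS core GGAAGT, present in 22.8% of promoters, was found in none of the 5 windows. A match describes letters in this window and is not evidence of binding.

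The gelatinases, which cleave denatured collagen and type IV collagen of basement membranes, did not share a pattern. MMP2 was at 130.1 CPM in siSMPD1, 40.7 CPM in control_SMPD1, 70.1 CPM in siGPR64 and 40.4 CPM in control_GPR64. The controls had nearly the same level, and both knockdown libraries lay above both of them. MMP2 was 3.19-fold higher in siSMPD1 than in control_SMPD1 (2.95 to 3.47), a ratio exceeded by 0.565% of measured genes, and 3.22-fold higher than in control_GPR64 (2.67 to 3.9). In siGPR64 it was 1.73-fold higher than in control_GPR64 (1.37 to 2.21) and 1.72-fold higher than in control_SMPD1 (1.46 to 2.03), below the 2-fold rule in both. The log2 ratio of siSMPD1 exceeded that of siGPR64 by 0.88, with a counting interval of 0.53 to 1.24.

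MMP9 instead resembled MMP1, with 356 reads in siSMPD1, 278 in control_SMPD1, 12 in siGPR64 and 2 in control_GPR64. These are 18.9, 14.5, 4.7 and 0.685 CPM, so the GPR64 pair again lay below the SMPD1 pair. MMP9 was 1.3-fold higher in siSMPD1 than in control_SMPD1 (1.11 to 1.53) and 5.63-fold higher in siGPR64 than in control_GPR64 (1.53 to 63.1), where the control has 2 reads. Against control_SMPD1 the siGPR64 library was 3.06-fold lower (1.73 to 6.03). Control_GPR64 was 19.9-fold below control_SMPD1 (5.79 to 175).

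The membrane-type enzymes MMP14 and MMP15, which are anchored at the cell surface, were both highest in siSMPD1. MMP14 was at 302 CPM in siSMPD1 and 152 CPM in control_SMPD1, and at 152 CPM in siGPR64 and 138 CPM in control_GPR64. Of these, siSMPD1 stood apart and the other 3 lay close together. The ratio in siSMPD1 was 1.99-fold to control_SMPD1 (1.91 to 2.08), just short of the rule, and 2.2-fold to control_GPR64 (1.98 to 2.44). In siGPR64 the ratio to its control was 1.11-fold with an interval that held equality (0.960 to 1.28). MMP15 was at 20.4 CPM in siSMPD1, 8.8 CPM in control_SMPD1, 16.8 CPM in siGPR64 and 6.85 CPM in control_GPR64, so that both knockdown libraries lay above both controls. It was 2.32-fold higher in siSMPD1 than in control_SMPD1 (1.93 to 2.80). It was 2.42-fold higher in siGPR64, on 43 reads, than in control_GPR64, on 20 reads (1.42 to 4.41). Against the other control these ratios were 2.96-fold (1.9 to 4.93) for siSMPD1 and 1.91-fold (1.34 to 2.69) for siGPR64. Against control_GPR64, siSMPD1 had 7 members higher and 1 lower, where 10.5% and 8.02% of measured genes were, and against control_SMPD1, siGPR64 had 1 higher and 2 lower, where 6.18% and 5.25% were. MMP2 and MMP15 passed in siSMPD1 over its own control and kept a 2-fold difference or more over control_GPR64, where 1.37% of measured genes were so higher and 0.635% so lower. In siGPR64 no member was past the rule in its pair and at least 2-fold the same way against control_SMPD1, where 1.53% of measured genes were so higher and 1.89% so lower. The comparisons with the paired and the other control share the knockdown library.

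**Figure D3:**
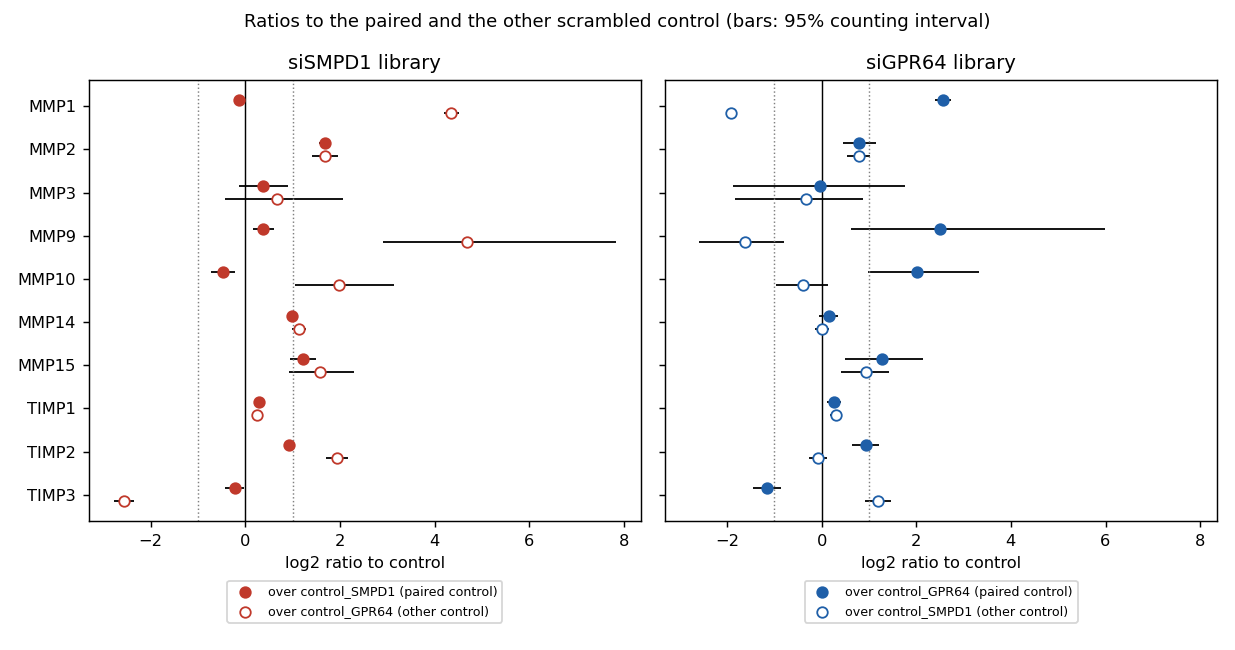
Log2 ratios of the 10 genes in siSMPD1 (left) and siGPR64 (right) to the paired control (filled) and to the other scrambled control (open), with bars for the 95% counting interval and dotted lines at 2-fold. MMP2 in siSMPD1 stays at 1.68 and 1.69 with either control, whereas MMP1 in siGPR64 is at 2.56 over control_GPR64 and at -1.92 over control_SMPD1.

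The inhibitor genes differed from one another. TIMP1, a secreted inhibitor of most metalloproteinases, was at 284 CPM in siSMPD1, 232 CPM in control_SMPD1, 284 CPM in siGPR64 and 237 CPM in control_GPR64. Each knockdown library lay above both controls by a small margin, with 1.22-fold in siSMPD1 over its control (1.18 to 1.27) and 1.2-fold in siGPR64 over its control (1.08 to 1.33). The controls differed 1.02-fold, with an interval that held equality (0.944 to 1.11). TIMP2 was at 214 CPM in siSMPD1, 113 CPM in control_SMPD1, 107 CPM in siGPR64 and 56.2 CPM in control_GPR64. Over the paired control its ratio was 1.90-fold in siSMPD1 (1.80 to 2.002). In siGPR64 it was 1.91-fold (1.57 to 2.33), and both ratios were short of the rule. Control_GPR64 was 2.01-fold below control_SMPD1 (1.71 to 2.37), and against control_SMPD1 the siGPR64 level had a log2 ratio of -0.07. This control difference was past the 2-fold rule with TMM scaling and short of it with 3 other scalings.

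TIMP3, the matrix-bound inhibitor that also blocks several ADAM proteases, was the member with its highest level in control_GPR64. It was at 20.7 CPM in siSMPD1, 24.1 CPM in control_SMPD1, 55.2 CPM in siGPR64 and 123 CPM in control_GPR64. Both libraries of the GPR64 pair were above both libraries of the SMPD1 pair. TIMP3 was 1.17-fold lower in siSMPD1 than in control_SMPD1 (1.02 to 1.34) and 2.22-fold lower in siGPR64 than in control_GPR64 (1.82 to 2.72). Against control_SMPD1 the siGPR64 library was 2.29-fold higher (1.88 to 2.77), and control_GPR64 was 5.08-fold above control_SMPD1 (4.42 to 5.85). In RefSeq TIMP1 overlaps SYN1 and TIMP3 overlaps SYN3, both synapsin genes, and no source used here gives the strand setting of the counting. In siGPR64 SYN1 was 2.81-fold higher than in control_GPR64 (1.62 to 5.25), and SYN3 was 2.33-fold lower with its 0 reads set to 3 counts. SYN1 was at 6.36 CPM in siSMPD1, 4.74 CPM in control_SMPD1, 17.6 CPM in siGPR64 and 6.17 CPM in control_GPR64. SYN3 had 9, 11, 0 and 8 reads in the same libraries, against 390, 463, 141 and 358 reads of TIMP3. WTAPP1, a pseudogene that overlaps MMP1 and MMP3, SLC12A5-AS1, an antisense RNA that overlaps MMP9, and CEP295NL, which overlaps TIMP2, were not analysed here.

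The ratio of metalloproteinase reads to TIMP reads can be taken within a library, free of scaling between libraries. It describes RNA, and the amounts of active enzyme and of inhibitor protein were not measured. Reads of MMP1 per read of TIMP1 numbered 8.37 in siSMPD1 and 11.3 in control_SMPD1, and 2.43 in siGPR64 and 0.491 in control_GPR64. This ratio was 4.95-fold higher in siGPR64 than in control_GPR64, a log2 change of 2.31 (2.08 to 2.53), and its log2 change in siSMPD1 was -0.43 (-0.49 to -0.37). With the other control both turned, to -2.21 for siGPR64 over control_SMPD1 and 4.09 for siSMPD1 over control_GPR64. Intervals of these changes are normal-theory intervals from the counts. MMP2 per TIMP3 moved the same way in both pairs, at 6.29 in siSMPD1 against 1.69 in control_SMPD1 and at 1.27 in siGPR64 against 0.33 in control_GPR64. The log2 changes were 1.90 (1.67 to 2.12) and 1.95 (1.51 to 2.38), but against control_SMPD1 the siGPR64 value was -0.41.

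MMP14 per TIMP2 hardly differed between siSMPD1, at 1.41, and control_SMPD1, at 1.35, with a log2 change of 0.07 (-0.03 to 0.17), as both genes were higher together. In siGPR64 it was 1.42, against 2.45 in control_GPR64, a log2 change of -0.79 (-1.13 to -0.44). MMP2 per TIMP2 was 0.608 in siSMPD1 and 0.361 in control_SMPD1, and 0.653 in siGPR64 and 0.72 in control_GPR64. Its log2 change was 0.75 in siSMPD1 (0.61 to 0.89) and -0.14 in siGPR64, with an interval that held 0 (-0.58 to 0.30). These read ratios are not molar ratios, as the genes differ in transcript length.

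**Figure D4:**
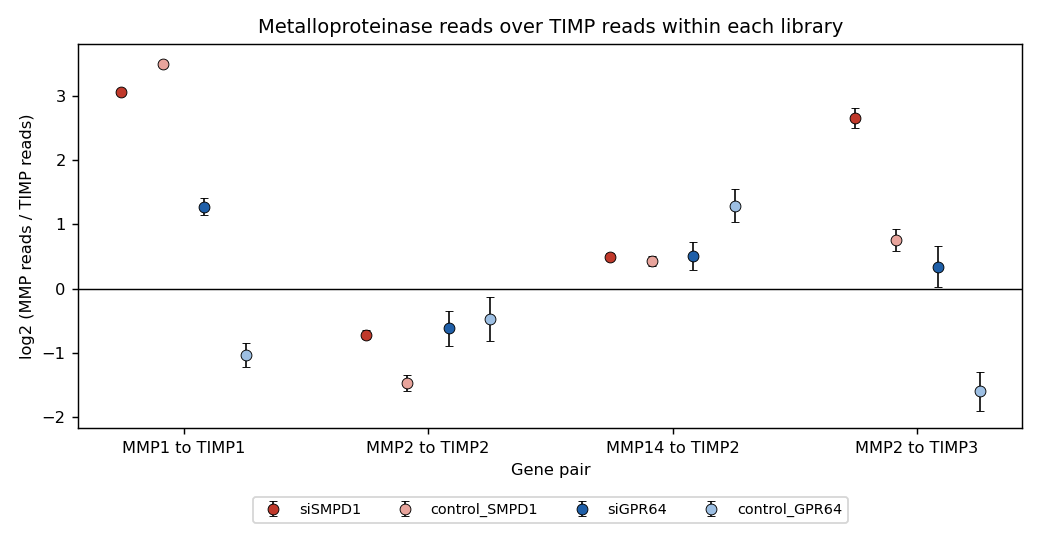
Log2 of metalloproteinase reads over TIMP reads within each library for 4 gene pairs, with bars for the 95% counting interval. MMP1 to TIMP1 lies at 3.07 and 3.49 in siSMPD1 and control_SMPD1 and at 1.28 and -1.03 in siGPR64 and control_GPR64, while MMP14 to TIMP2 lies at 0.50, 0.43 and 0.51 in siSMPD1, control_SMPD1 and siGPR64 and apart from them at 1.29 in control_GPR64.

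Levels were set against each other as CPM per kilobase, dividing by the union of annotated exons of GENCODE release 29. MMP1 led in siSMPD1 (1205 CPM per kilobase), control_SMPD1 (1324) and siGPR64 (350), with TIMP1 second at 184, 150.4 and 184. In control_GPR64 this order was turned, with TIMP1 at 154 and MMP1 at 59.1 CPM per kilobase. MMP14 came next in siSMPD1, control_SMPD1 and siGPR64 and after MMP1 in control_GPR64, at 67.7, 33.99, 34.1 and 30.8 CPM per kilobase in siSMPD1, control_SMPD1, siGPR64 and control_GPR64. TIMP3 followed MMP14 in control_GPR64 at 26.6 CPM per kilobase, whereas in siSMPD1, at 4.49, MMP3 alone stood below it. MMP3 was last in siSMPD1, control_SMPD1 and siGPR64 at 1.89, 1.45 and 1.15 CPM per kilobase, and MMP9 was last in control_GPR64 at 0.293.

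The genes with the nearest pattern over the 4 libraries were sought among 8350 others with a mean of at least 20 CPM, by distance between centred log2 levels. Nearest to MMP1 were MYOF, a membrane repair protein of the ferlin family, CD109, a membrane-anchored glycoprotein, and PSMB8, an immunoproteasome subunit. MYOF was at 141 CPM in siSMPD1, 163 CPM in control_SMPD1, 63.5 CPM in siGPR64 and 7.54 CPM in control_GPR64, at a distance of 0.49. Nearest to MMP2 were PNPLA3, BMF and SEMA4B, at distances of 0.36, 0.39 and 0.39. MMP14 lay nearest to SYPL1, PIK3R3 and SRD5A1, at 0.13, 0.17 and 0.17, and TIMP2 nearest to CNTNAP1, DCBLD2 and E2F7, at 0.08, 0.13 and 0.14. TIMP1, which hardly varied, lay nearest to RBM7, PGBD1 and NEIL3. Nearest to TIMP3 were GADD45A, a stress-response gene, GALNT1 and DOK6. GADD45A, at a distance of 0.23, had levels of 34.2, 37.9, 74.4 and 197 CPM in siSMPD1, control_SMPD1, siGPR64 and control_GPR64. With 4 libraries of unequal depth these likenesses are descriptions.

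Of 17 other metalloproteinase genes, 6 were measured in the SMPD1 pair and 5 in the GPR64 pair. MMP8 and MMP13 were lower in siSMPD1, as given above, and none was higher, where 1.11% and 2.49% of all measured genes were. MMP16, a membrane-type enzyme, was the 1 gene past the rule in siGPR64, where 6.56% of all measured genes were higher. It stood at 18.4 CPM against 8.56 CPM in control_GPR64, 2.13-fold higher (1.3 to 3.65). Among 5 other inhibitor genes, TIMP4 stood at 23.4 CPM in siSMPD1, 19.1 CPM in control_SMPD1, 22.3 CPM in siGPR64 and 4.45 CPM in control_GPR64. TIMP4 was thus 4.86-fold higher in siGPR64 than in control_GPR64 (2.71 to 9.99), with control_GPR64 the library apart. A2M, a broad protease trap, had 0 reads in siGPR64 and 7 in control_GPR64. With this 0 set to 3 counts it was 2.04-fold lower, and the counting interval began at 1.26-fold. In control_SMPD1 A2M was at 0.573 CPM, below the 3-count floor of siGPR64 (1.18 CPM), so a decrease against that library was not detectable. RECK, a membrane-anchored inhibitor, was within 2-fold in both pairs.

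Genes that activate or bind these enzymes had no member of 10 measured past the rule in siSMPD1, where 3.6% of all measured genes were. In siGPR64 2 of 9 were higher, where 6.56% of all measured genes were: PLAU, the urokinase that starts plasmin-dependent activation, at 9.4 CPM against 1.71 CPM in control_GPR64, 5.06-fold higher (2.05 to 18.4), and PLAT, tissue plasminogen activator, at 16.5 CPM against 3.08 CPM, 5.09-fold higher (2.56 to 12.5). PLAU had a log2 ratio of -0.20 against control_SMPD1 and PLAT one of 2.29. FURIN, a convertase that cuts the propeptide of MMP14, stood at 121 CPM in siSMPD1, 128 CPM in control_SMPD1, 164 CPM in siGPR64 and 99.0 CPM in control_GPR64.

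Of 16 AP-1, ETS and RUNX factor genes, families that bind metalloproteinase promoters, 12 were measured in each pair. In siSMPD1 3 were lower and none higher, where 1.11% and 2.49% of all measured genes were: FOS at 2.42-fold (1.92 to 3.09), ATF3 at 2.14-fold (1.8 to 2.56) and ETV4 at 2.24-fold lower (1.87 to 2.7). In siGPR64 FOSL1, an AP-1 subunit, was at 22.7 CPM against 6.17 CPM in control_GPR64, 3.61-fold higher (2.14 to 6.65), and FOSL2 was 2.92-fold higher (1.46 to 6.69). ATF3 was 4.43-fold lower there (3.26 to 6.24), at 18.4 CPM against 82.2 CPM in control_GPR64. The log2 ratios of siGPR64 to control_SMPD1 were 0.92 for FOSL1, 0.37 for FOSL2 and -0.20 for ATF3. For FOSL2 and ATF3 the counting intervals of these ratios held equality. ATF3 was at 9.86 CPM in siSMPD1 and 21.1 CPM in control_SMPD1, so control_GPR64 was the library apart. FOSL1 was at 6.89 CPM in siSMPD1 and 11.97 CPM in control_SMPD1, so its level in control_GPR64 was close to that of siSMPD1. FOSL2 was at 13.0 CPM in siSMPD1, 8.80 CPM in control_SMPD1, 11.4 CPM in siGPR64 and 3.77 CPM in control_GPR64. Any part of these factors in the levels of the members was not tested.

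Among 12 ADAM genes, proteases that shed membrane proteins, 8 were measured in each pair. None was past the rule in siSMPD1, where 3.6% of all measured genes were. In siGPR64 2 were higher, where 6.56% of all measured genes were. These were ADAM19 at 5.98-fold (2.0 to 36.4, on 3 reads in control_GPR64) and ADAM22 at 2.67-fold (1.91 to 3.83). Over control_SMPD1 the siGPR64 ratio was 8.08-fold for ADAM19 (4.08 to 17.7) and 1.56-fold for ADAM22 (1.26 to 1.91), the latter short of the rule. Of 19 ADAMTS genes, secreted proteases of proteoglycans and procollagens, 6 were measured in each pair. In siSMPD1 1 was higher, where 2.49% of all measured genes were. In siGPR64 1 was higher and 1 lower, where 6.56% and 5.18% of all measured genes were. ADAMTS10 was 2.02-fold higher in siSMPD1 than in control_SMPD1 (1.69 to 2.43), and 1.64-fold higher than in control_GPR64 (1.15 to 2.40). ADAMTS15 had 16 reads in siGPR64 against 0 in control_GPR64. With this 0 set to 3 counts it was 6.1-fold higher, and the counting interval began at 4.41-fold. ADAMTS15 stood at 6.41 CPM in siSMPD1, 7.13 CPM in control_SMPD1 and 6.27 CPM in siGPR64, so control_GPR64 was the library apart, and the log2 ratio of siGPR64 to control_SMPD1 was -0.18. ADAMTS13 was 8.07-fold lower in siGPR64 than in control_GPR64, on 1 read against 13 (1.71 to 483).

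Of 16 matrix substrate genes, 15 were measured in each pair. In siSMPD1 3 were higher and none lower, where 2.49% and 1.11% of all measured genes were, namely COL2A1, BGN and VCAN at 6.91-fold (4.05 to 13.5), 2.33-fold (2.13 to 2.56) and 2.56-fold (1.31 to 5.62). COL2A1, a cartilage collagen, was at 5.19 CPM in siSMPD1 against 0.729 CPM in control_SMPD1. Over control_GPR64 the log2 ratio of BGN in siSMPD1 was -0.48. In siGPR64 4 were higher and 2 lower, where 6.56% and 5.18% of all measured genes were. COL1A2, a chain of type I collagen that MMP1 cleaves, was at 442 CPM in siGPR64 against 200.4 CPM in control_GPR64, 2.21-fold higher (2.0 to 2.44), but was at 623 CPM in control_SMPD1, so that the log2 ratio of siGPR64 to that library was -0.49. ELN, elastin, was 2.67-fold higher (2.29 to 3.13). COL1A1 was 2.19-fold (1.72 to 2.82) and SPARC 2.45-fold higher (2.20 to 2.73). Over control_SMPD1 the siGPR64 ratio was 1.21-fold for ELN, 1.44-fold for SPARC and 3.26-fold for COL1A1. DCN, with 2 reads in siGPR64 against 12 in control_GPR64, was 4.44-fold lower (1.17 to 48.3). Of 9 fibroblast markers, of which COL1A1, COL1A2, COL3A1 and DCN are also in the substrate list, the summed level was 1410 CPM in siSMPD1, 1070.5 CPM in control_SMPD1, 911 CPM in siGPR64 and 481 CPM in control_GPR64. COL1A2 and THY1, at 442 and 324 CPM in siGPR64 against 200.4 and 159 CPM in control_GPR64, made up most of that sum. PDGFRB, at 55.6 CPM in siGPR64 against 76.0 CPM in control_GPR64, DCN and FAP had lower values in siGPR64, and LUM was at 0 in both libraries of this pair. The part of this list in the levels of the members was not tested.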

How the data were processed

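Total RNA of A673 cells was sequenced as ribosome-depleted paired-end libraries, per the labels' protocols. Tools listed in the submitters' processing notes are TopHat2, HTSeq, SAMtools and bcl2fastq, with build hg19 and no versions. No source used here gives annotation, strand setting or counting mode. The authors deposited a table of unnormalized counts by gene symbol for each library. The 5 HTSeq summary lines (36.5% to 44.8% of entries) were left out, and the 20.1% to 30.1% of entries that were not uniquely aligned are thus absent from the gene counts.

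Counts were scaled with TMM factors (edgeR 4.0.16, R 4.3.3) over genes that reach 1 CPM in any library. Log2 ratios used a prior of 0.5 count, scaled to the library totals, and 95% intervals are exact Clopper-Pearson intervals of the share of reads (scipy 1.17.1). They cover counting error only, and as no molecular identifiers mark the reads, they may be too narrow. A library with 0 reads was set to 3 counts where a fold is given for it, and such a fold leaves out the counting error of the other library. Groups came from the labels' titles. With 1 library per group no test of conditions was made. Alternatives were DESeq2 1.42.0 and the quasi-likelihood test of edgeR, each with both scrambled libraries as 1 group, and other scalings, filters, priors, thresholds and controls. The ratio code was tested on simulated data. Promoters are from RefSeq (GRCh38.p14) and lengths from GENCODE release 29, and no coordinates were matched to the files.

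The members, lists and rules were chosen with earlier results of these data known. Named genes are the 10 members, SMPD1 and GPR64, list genes past the rule in a knockdown pair (up to 4 per list and comparison, by the interval bound), nearest patterns for members with a mean of at least 20 CPM, and genes over or next to a member in RefSeq. DCN, FURIN, RECK and the marker genes, and the ratios of list genes to the other control, were added after their values were seen. Genes next to a member outside the chromosome 11 run are not printed. The values of 1 matrix substrate gene are not reported here.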

Additional observations from a re-analysis of the deposited data

Results flagged for a closer look

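MMP1 and MMP10 pointed opposite ways in the knockdown pairs, with counting intervals that excluded equality on each side. The log2 ratio of MMP1 was -0.14 in siSMPD1 over control_SMPD1 and 2.56 in siGPR64 over control_GPR64. That of MMP10 was -0.47 in siSMPD1 over control_SMPD1 and 2.01 in siGPR64 over control_GPR64. The siSMPD1 ratios were small, as 66.0% of measured genes had a larger ratio than MMP1 there and 19.4% a larger one than MMP10. The difference between the pairs was not tested, since each group holds 1 library. In siGPR64 over control_SMPD1 both genes were negative, at -1.92 for MMP1 and -0.39 for MMP10, and in siSMPD1 over control_GPR64 both were positive, at 4.35 and 1.97.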

How the results depend on the processing

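With 1 library per group no library could be left out, and no paired analysis was possible because each group holds 1 library. Over 5 alternatives in scaling, filter and prior, 142 of 150 member ratios kept direction and side of the rule. MMP14 in siSMPD1 passed it with total counts (1.03) and upper-quartile factors (1.02). TIMP2 between the controls fell short with DESeq2 size factors (-0.99), total counts (-0.96) and upper-quartile factors (-0.95). MMP2 between the controls, at -0.01, became 0.0029, 0.038 and 0.046 with these 3 scalings.

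A fold threshold of 1.5 moved the members higher in siSMPD1 to 4, those against both controls to 4 in siSMPD1 and 2 in siGPR64, and all genes past the rule to 1535, 3148 and 3985 in siSMPD1, siGPR64 and between the controls. A mean CPM of at least 5 left 198 genes in siSMPD1 and 3 members higher in siGPR64, where MMP9 was no longer measured.

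With the other scrambled control, 7 higher and 1 lower members passed in siSMPD1, and 1 higher and 2 lower in siGPR64. The ratio reversed in siSMPD1 for MMP1 (4.35) and MMP10 (1.97), and in siGPR64 for MMP1 (-1.92), MMP9 (-1.61), MMP10 (-0.39), TIMP2 (-0.071) and TIMP3 (1.20). Reads of MMP1 per TIMP1 reversed in siSMPD1 (4.09) and siGPR64 (-2.21), MMP2 per TIMP2 in siSMPD1 (-0.24) and siGPR64 (0.86), MMP14 per TIMP2 in siSMPD1 (-0.80) and siGPR64 (0.077), and MMP2 per TIMP3 in siGPR64 (-0.41). The cause was not tested.

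With both scrambled libraries as a single group and 1 residual degree of freedom, 13664 genes were tested at an adjusted p under 0.05. The quasi-likelihood test of edgeR called 0 genes in siSMPD1 and 0 in siGPR64. DESeq2 called 1 gene in siSMPD1 and 0 in siGPR64. As each knockdown group holds 1 library, these counts do not show that the other genes were unchanged. MMP2 in siSMPD1 had a log2 ratio of 1.68 in that edgeR fit and an adjusted p of 0.999, and 1.67 in DESeq2 with an adjusted p of 0.9999.

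Dividing by the longest transcript, chosen after seeing the data, put MMP2 above MMP10 in control_SMPD1. Depth limits MMP3, MMP9 and MMP10 in the GPR64 pair, where at most 33 reads lie behind a value. MMP15, on 43 reads in siGPR64 and 20 in control_GPR64, is limited by depth as well.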
